A study of Mus musculus with 2 samples.

Results

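Genes that were accessible at 2 or more separate promoters were described in whole mouse embryos of 11 days by DNase-seq. In this assay DNase I cleaves DNA that nucleosomes leave exposed, and the ends it makes are read by sequencing. There was 1 group of 2 biological replicates, each of embryos of both sexes pooled (strain B6NCrl, with a donor entry in common), and no treatment, genotype or other stage. The members were protein-coding genes of GENCODE M21 on chromosomes 1 to 19 with accessible protein-coding transcription start sites (TSSs) at least 10 kb apart. A TSS was accessible when a replicate 1 peak within 500 bp of it overlapped a replicate 2 peak, and peaks of internal promoters had to lie over 5 kb from the TSSs of other protein-coding genes. Of 20722 genes with a protein-coding transcript, 924 were members (4.46%), and of the 3629 genes with annotated TSSs at least 10 kb apart they were 25.5%. The genes were chosen by the presence of peaks in both replicates, so their peaks and scores are a description and were not tested.

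Many mammalian genes can start transcription at more than one place. Each start has its own core promoter and first exon, so the use of an alternative promoter can change when and where a gene is transcribed, and also the beginning of the protein. Well-known cases in embryos include transcription factors of bone, neuronal adhesion proteins and imprinted genes. An accessible promoter is one from which nucleosomes have been moved aside, a usual condition for transcription that does not by itself show that RNA is made. In tissue of many cell types, accessibility at both promoters of a gene does not show that both were open in the same cells, and fewer cells with an open promoter cannot be told apart from less accessibility per cell.

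The upstream promoter of a gene began at its most upstream accessible TSS and took in the accessible TSSs under 10 kb downstream of it. Every accessible TSS at least 10 kb downstream was part of an internal promoter. Each promoter was represented by its peak of 150 bp with the highest replicate 1 score. Peak pairs of 5 genes show how different the sequence at both promoters of 1 gene can be. They come from the first 10 non-excluded genes of a list of known alternative promoters, and are those for which at least 80 bases were left at both promoters after annotated untranslated exon was trimmed to at most 30 bases. The sequences are from the reference GRCm38 (mm10), on the strand of the gene, and capitals mark each CpG, the dinucleotide that vertebrate DNA methylation acts on.
Tcf7l2 internal, chr19:55895456-55895539, plus strand: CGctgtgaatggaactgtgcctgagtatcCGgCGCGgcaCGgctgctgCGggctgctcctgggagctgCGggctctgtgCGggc
Tcf7l2 upstream, chr19:55741676-55741825, plus strand: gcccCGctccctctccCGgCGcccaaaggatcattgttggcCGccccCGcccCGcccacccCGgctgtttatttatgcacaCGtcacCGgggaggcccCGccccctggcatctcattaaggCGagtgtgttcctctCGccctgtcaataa
Rara internal, chr11:98960336-98960441, plus strand: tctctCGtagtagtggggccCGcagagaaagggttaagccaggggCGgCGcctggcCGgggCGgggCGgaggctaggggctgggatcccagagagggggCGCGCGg
Rara upstream, chr11:98937536-98937685, plus strand: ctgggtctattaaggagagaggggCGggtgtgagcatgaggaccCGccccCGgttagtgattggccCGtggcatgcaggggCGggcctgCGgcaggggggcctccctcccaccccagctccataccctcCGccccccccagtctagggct
Ppargc1a internal, chr5:51553893-51554025, minus strand: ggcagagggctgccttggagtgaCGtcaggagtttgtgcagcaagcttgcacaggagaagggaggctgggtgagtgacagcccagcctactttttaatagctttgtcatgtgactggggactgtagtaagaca
Ppargc1a upstream, chr5:51567796-51567945, minus strand: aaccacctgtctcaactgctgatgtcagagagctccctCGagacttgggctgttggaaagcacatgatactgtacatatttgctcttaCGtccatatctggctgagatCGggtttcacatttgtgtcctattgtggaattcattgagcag
Nrxn2 internal, chr19:6497456-6497605, plus strand: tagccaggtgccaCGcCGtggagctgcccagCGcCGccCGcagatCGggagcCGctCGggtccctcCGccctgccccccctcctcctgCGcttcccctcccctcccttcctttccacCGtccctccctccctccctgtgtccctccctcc
Nrxn2 upstream, chr19:6418636-6418760, plus strand: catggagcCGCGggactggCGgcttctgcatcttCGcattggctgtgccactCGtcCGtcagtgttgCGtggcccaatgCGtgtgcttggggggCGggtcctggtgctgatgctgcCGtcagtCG
Dst internal, chr1:34011456-34011605, plus strand: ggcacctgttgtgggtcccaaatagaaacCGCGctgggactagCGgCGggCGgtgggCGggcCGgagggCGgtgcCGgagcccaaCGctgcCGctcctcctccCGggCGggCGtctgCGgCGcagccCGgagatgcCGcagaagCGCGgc
Dst upstream, chr1:33907876-33908025, plus strand: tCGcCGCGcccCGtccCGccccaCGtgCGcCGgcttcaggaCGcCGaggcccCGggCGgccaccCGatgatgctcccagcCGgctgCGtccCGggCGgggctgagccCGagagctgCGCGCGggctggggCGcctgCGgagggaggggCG

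Whole peaks held 15 CpGs at the internal and 12 at the upstream promoter of Tcf7l2, a nuclear effector of Wnt signalling. Rara, the retinoic acid receptor alpha, had 14 in the internal peak and 7 in the upstream one. The first TSSs of its promoters lay 32.59 kb apart, farther than these peaks. Its upstream peak thus lay near a later TSS of the upstream promoter, not at the most upstream accessible TSS. At Ppargc1a, a coactivator of mitochondrial genes, both peaks were poor in CpG, with 1 in the internal and 3 in the upstream peak. Nrxn2, a presynaptic adhesion protein, had 11 in the internal and 14 in the upstream peak, and Dst, a cytoskeletal linker, had 20 in the internal and 24 in the upstream peak. The first TSSs of the Dst promoters lay 97.66 kb apart, less than these peaks, so its internal peak lay near a later TSS of the internal promoter. Both peaks of Tcf7l2, Rara, Nrxn2 and Dst held the GC box GGGCGG, and neither peak of Ppargc1a did.

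The accessible set was wide. Replicate 1 had 204697 peaks, replicate 2 had 231103, and 162667 replicate 1 peaks were shared, meaning that they had at least 1 bp in common with a replicate 2 peak. At least 1 accessible TSS was found at 14463 of the 20722 genes (69.8%). The read depth of the libraries is unknown, because only called intervals were analysed. All 13 marker genes of neural, somite, limb, heart, endothelial and endodermal tissue had a shared promoter peak, and 0 of 9 markers of trophoblast and decidua, macrophages and sperm did. Prm1, a sperm protamine, had a peak in each replicate, but these peaks did not overlap each other.

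Of the 3629 genes with TSSs at least 10 kb apart, 404 had no accessible TSS and 2301 had accessible TSSs but fewer than 2 separate promoters. Among the 2301 were 35 genes whose internal peaks all lay within 5 kb of another gene's TSS. The 924 members had 2053 promoters with 3487 shared peaks. There were 778 genes with 2 promoters, 106 with 3, 25 with 4, 12 with 5, 2 with 6 and 1 with 7. Replicate 1 peaks alone gave 1022 members and replicate 2 peaks alone gave 1027, and 920 of the 924 were also found with replicate 2 alone. Members had a median of 5 annotated TSSs (lowest 2, highest 44), against 3 (2 to 25) in the other genes with TSSs 10 kb apart. Their median gene length was 109 kb, against 59.1 kb in those other genes and 17.6 kb in all protein-coding genes. Whether gene length or the number of TSSs bears on membership was not tested.

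The distance between the upstream TSS and the first internal TSS had a median of 40.2 kb, with quartiles of 21.4 and 88.7 kb. It was under 20 kb in 215 genes, 20 to 50 kb in 315, 50 to 100 kb in 187 and 100 kb or more in 207. At the threshold of 10 kb, Zfp458 (10002 bp) and Med15 (10070 bp) were just inside, and Nfyc (9995 bp) and Cc2d2a (9943 bp) just outside. At the threshold of 500 bp, the peaks of Il17rd and Spire1 (499 bp each) were just inside, and those of Shld2 (501 bp) and Lipo3 (503 bp) just outside. At the threshold of 5 kb from other genes, Trip4 (5072 bp) was just inside, and Mapkapk5 (4985 bp) and Ap1g1 (4958 bp) just outside. TSSs of 1 promoter can spread over almost 10 kb, so in 11 genes (1.19%) the midpoints of the peaks that represent both promoters lay under 10 kb apart. In Adgrg1 and Med15, named here after their values were seen, 1 peak stood for both promoters.

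Most internal promoters lay inside the gene's own long transcripts. The first internal TSS fell in an intron of a transcript from the upstream promoter in 774 genes (83.8%), in an exon in 134 (14.5%) and outside those transcripts in 16. The intron was the first in 371 genes, the second in 176 and a later one in 227. The upstream promoter started at the most upstream annotated TSS in 867 genes (93.8%). A curated RefSeq transcript started within 500 bp of the internal promoter in 550 genes (59.5%) and of the upstream promoter in 741 (80.2%). No RefSeq transcript of the gene started there at 269 internal promoters (29.1%), against 88 upstream promoters (9.52%). All transcripts from the promoter were marked as incomplete at their start at 115 internal and 6 upstream promoters, so support from annotation was weaker at internal TSSs.

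The internal peak scored lower than the upstream one in most of the genes. The score is the authors' own whole number from 1 to 150. The sources do not say how it was made, so its order and differences within a list were used and no ratios. Internal peaks had a median score of 84 in replicate 1 and 94 in replicate 2, against 118 and 124 at upstream peaks. For reference, all 25186 shared promoter peaks had medians of 100 and 111, and the 125536 shared distal peaks, over 1 kb from every protein-coding TSS, had 47 and 56. Both reference sets hold every peak, while a member promoter is given by its highest-scoring peak, so they were not chosen alike. The internal peak scored higher in both replicates in 269 genes (29.1%) and the upstream peak in 593 (64.2%). The order differed between the replicates in 49 genes (5.3%), in which no difference was over 28, and 13 genes (1.41%) had equal scores in at least 1 replicate. A score differed between the replicates by a median of 8 at internal peaks and 6 at upstream peaks, while the internal minus upstream difference had a median of -23.5 in replicate 1 and -21 in replicate 2. Spearman's rank correlation between the replicates was 0.98 over the 924 internal and 0.96 over the 924 upstream peaks, as a description of peaks that share libraries. Replicate 2 gave the higher score at 782 internal and 762 upstream peaks.

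**Figure D1:**
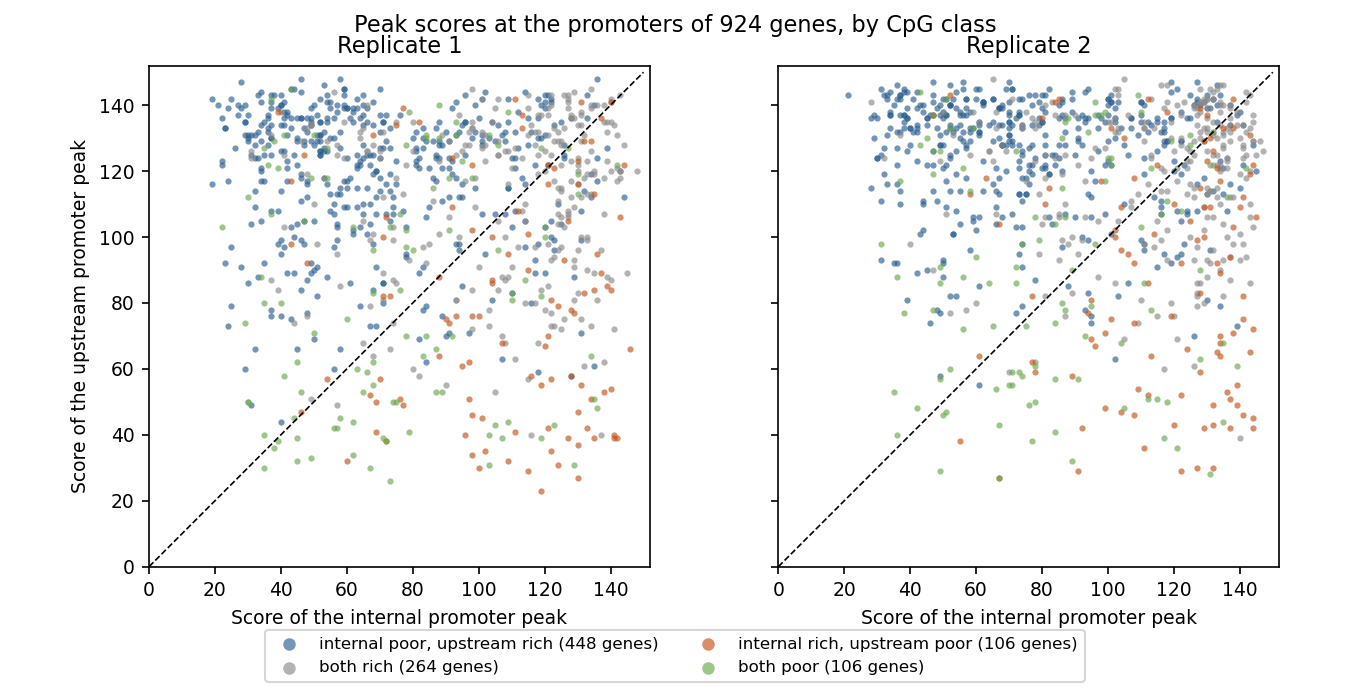
Score of the internal promoter peak (x axis) against that of the upstream promoter peak (y axis) for the 924 genes in replicate 1 (left) and replicate 2 (right). Each point is a gene, coloured by whether the CpG ratio of each peak was at least 0.6 (rich) or lower (poor), and the dashed line marks equal scores. Points lie mostly above the line, and the 448 genes with a CpG-poor internal and a CpG-rich upstream peak fill its upper left, while the 106 genes of the opposite kind lie mostly below it.

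The broader hotspots, regions of enriched cleavage around peaks, gave the same order of medians. The hotspot at the internal peak had a median width of 590 bp in replicate 1 and 726 bp in replicate 2, against 1210 and 1410 bp at the upstream peak. Its deposited −log10 q value was at the ceiling of 100 at 72.4% of internal peaks in replicate 1 and 75.6% in replicate 2, against 90.7% and 92.7% of upstream peaks. Across genes the scores of both promoters were almost unrelated, with a Spearman rank correlation of -0.11 in replicate 1 and -0.13 in replicate 2 (n = 924, all from the same libraries). Internal promoters had a median of 1 peak and upstream promoters of 2, and the highest-scoring peak was taken at each. With the peak nearest to a TSS in its place, the internal peak was higher in 280 genes (30.3%).

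Internal peaks were poorer in CpG than upstream ones. The CpG observed-to-expected ratio, the number of CpGs relative to what the C and G content of the peak would give, had a median of 0.494 at internal and 0.838 at upstream peaks. It was 0.765 over all shared promoter peaks and 0.256 over shared distal peaks, which places internal peaks between these sets. A ratio of 0.6 or more, a customary mark of CpG islands, was reached by 40.0% of internal and 77.1% of upstream peaks, against 69.1% of all promoter peaks and 9.93% of distal peaks. Within a gene the internal peak had the lower ratio in 661 cases and the higher in 259, with a median difference of -0.294. The median GC content was 59.3% at internal and 68.7% at upstream peaks, against 64.7% and 51.3% in all promoter and all distal peaks. Repeats made up most of the bases in 1.3% of internal and 0.758% of upstream peaks.

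**Figure D2:**
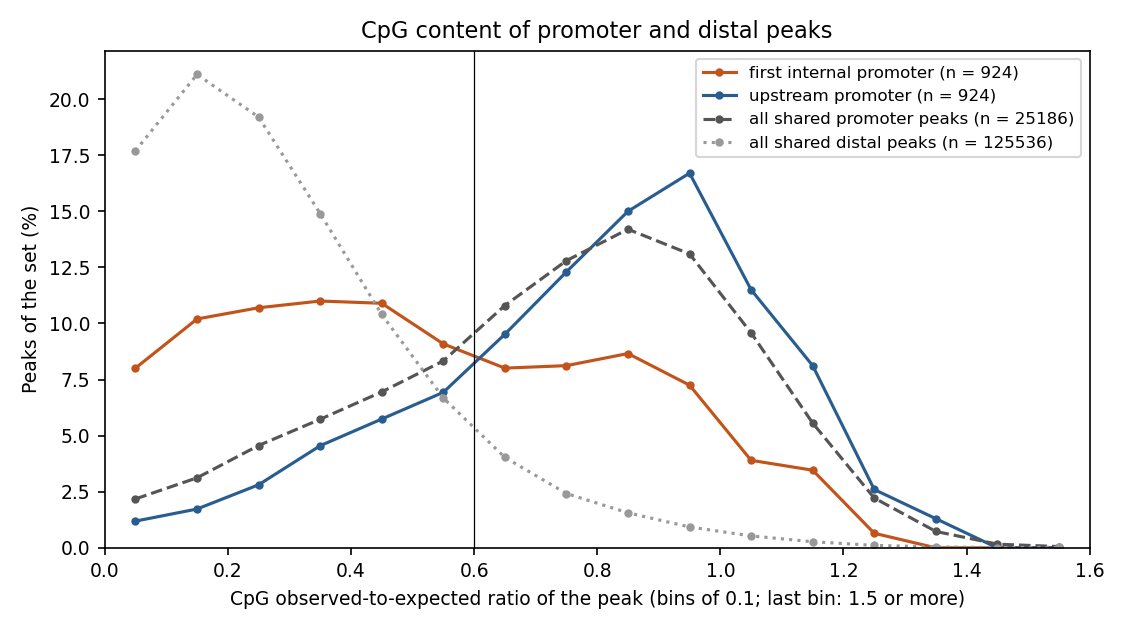
Share of peaks (y axis, percent) by CpG observed-to-expected ratio in bins of 0.1 (x axis) for the first internal and the upstream promoter peaks of the members, all shared promoter peaks and all shared distal peaks. The vertical line marks 0.6. The internal curve is broad on both sides of that line (40.0% of peaks at or above it), while the upstream curve has its bulk to the right (77.1%), near that of all promoter peaks.

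CpG content and score went together within the pairs. In 448 genes (48.5%) the internal peak was CpG-poor and the upstream peak CpG-rich, and in 87.3% of these the upstream peak scored higher in both replicates. The opposite arrangement, an internal CpG-rich and an upstream CpG-poor peak, was seen in 106 genes (11.5%), and there the internal peak scored higher in both replicates in 70.8%. Where both were rich (264 genes, 28.6%), the internal peak was higher in 40.2% and the upstream one in 48.9%. Where both were poor (106 genes, 11.5%), the internal peak was higher in 46 genes and the upstream one in 53. Spearman's rank correlation between CpG ratio and score was 0.56 in replicate 1 and 0.58 in replicate 2 at internal peaks, and 0.39 in both at upstream peaks (n = 924 each). These are descriptions across peaks of the same libraries, and a dependence of the assay on base composition was not tested.

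Of 5 motifs of widely expressed promoter factors, 4 were less frequent at internal than at upstream peaks. Motifs were searched on both strands of the 150 bp, and none of them contains another. As above, the sets of all promoter and all distal peaks were not limited to the highest-scoring peak of a promoter. GGGCGG, the GC box of Sp and Klf factors, was in 32.1% of internal and 58.5% of upstream peaks, against 46.5% of all promoter and 8.45% of distal peaks. Within CpG-rich peaks these shares were 57.6% of internal and 66.6% of upstream peaks, and within CpG-poor peaks 15.2% of internal and 31.6% of upstream peaks. The share was lower at internal peaks in both CpG classes. GGGCGG itself holds a CpG and ratios were not matched within a class, so this split cannot separate the motif from CpG content. CCGGAAG, a site of Ets factors, was in 3.03% of internal and 5.84% of upstream peaks (8.81% of all promoter peaks). Within CpG-rich peaks its shares were close, with 5.95% of internal and 6.74% of upstream peaks. Within CpG-poor peaks they were 1.08% and 2.83%, from 6 peaks each. CCGGAAG also holds a CpG, so the same limit applies. ATTGG, the CCAAT box read on the other strand, was in 16.6% of internal and 23.5% of upstream peaks (20.9% of all promoter peaks). It was also lower at internal peaks in both CpG classes, with 14.6% of internal and 22.5% of upstream CpG-rich peaks, and 17.9% of internal and 26.9% of upstream CpG-poor peaks. CACGTG, an E-box of Myc and Usf, was in 3.9% of internal and 6.39% of upstream peaks (5.95% of all promoter peaks). This motif holds a CpG too. Its shares were 5.68% of internal and 7.02% of upstream CpG-rich peaks, and 2.71% of internal and 4.25% of upstream CpG-poor peaks. GCGCATGC, a site of Nrf1, was in 2.49% of internal and 2.27% of upstream peaks (2.55% of all promoter peaks), which is the only one of this group that was not less frequent at internal peaks. Its order differed between the classes. It was in 19 of 370 internal (5.14%) and 18 of 712 upstream (2.53%) CpG-rich peaks. In CpG-poor peaks it was in 4 of 554 internal (0.722%) and 3 of 212 upstream (1.42%).

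Other motifs were more common at internal than at upstream peaks. TATAAA, the TATA box, was in 2.92% of internal and 1.08% of upstream peaks, against 2.09% of all promoter and 4.91% of distal peaks. AGATAA, a site of Gata factors, was in 3.35% of internal and 1.08% of upstream peaks, against 1.75% of all promoter and 5.25% of distal peaks. Both shares at internal peaks lay between those of upstream and distal peaks. TGANTCA, a site of AP-1, was in 3.25% of internal and 1.73% of upstream peaks, against 2.03% of all promoter and 5.28% of distal peaks. TAATTA, a core of homeodomain sites, was in 1.52% of internal and 0.866% of upstream peaks, against 0.703% of all promoter and 3.32% of distal peaks. For all 4, the share at internal peaks lay below that at distal peaks. Within CpG-poor peaks AGATAA was in 4.15% of internal and 4.72% of upstream peaks, and within CpG-rich peaks it was in 8 of 370 internal and 0 of 712 upstream peaks. TATAAA was in 23 of 554 internal (4.15%) and 3 of 212 upstream (1.42%) CpG-poor peaks. In CpG-rich peaks it was in 4 of 370 internal (1.08%) and 7 of 712 upstream (0.983%), so all of these shares rest on few peaks. TAATTA was in 2.35% of internal and 2.36% of upstream CpG-poor peaks, and in 0.27% of internal and 0.421% of upstream CpG-rich peaks, so that it was not more frequent at internal peaks within either class. TGANTCA was in 4.15% of internal and 4.72% of upstream CpG-poor peaks, and in 1.89% of internal and 0.843% of upstream CpG-rich peaks. A match describes the letters in the window and is no measure of binding.

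Many of the internal promoters open onto another protein start. The annotated transcripts of the internal promoter shared no start codon with those of the upstream one in 506 genes (54.8%) and shared one in 299 (32.4%), and 119 (12.9%) had no complete coding start on one side. Among 378 genes with their own start codon and complete coding lengths at both promoters, the longest product from the internal promoter was shorter in 267, longer in 107 and equal in 4. It had a median of 57 codons fewer, and in 63 genes it was under 50% of the upstream length. Of the 774 genes with the internal TSS in an intron, 296 had no coding exon before it, 240 had 1 and 238 had 2 or more. Of the 296, 238 shared a start codon with the upstream promoter and 58 had their own.

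The list of genes known for alternative promoters held 39 genes, of which 34 had TSSs at least 10 kb apart and 21 were members. The first internal peak scored higher than the upstream one in both replicates in 10 of the 21 and lower in 9, against 29.1% and 64.2% over all members. Their median internal CpG ratio was 0.679 and the upstream one 0.883. The internal promoter had its own start codon in 18 of the 21. The list was drawn up from genes with studied promoters, and nothing particular to it is read from these shares. For named genes with 3 or more promoters, here and below, values called internal are those of the first internal one unless stated. A missing RefSeq start is stated for some named genes only, and promoters of others lack one as well. A later internal promoter scored highest in 43 of the 135 such members whose highest promoter was the same in both replicates.

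**Figure D3:**
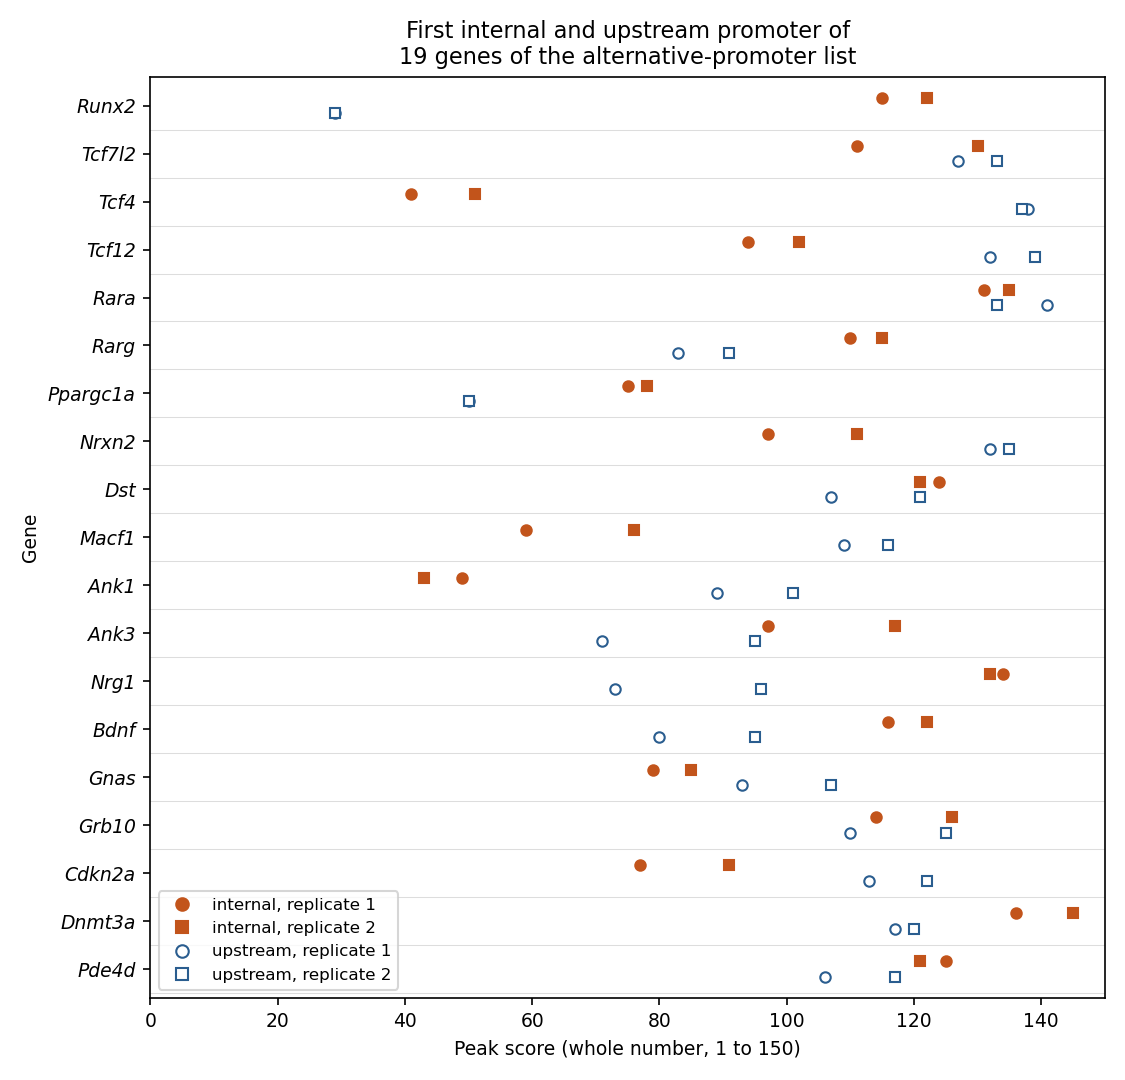
Peak scores (x axis) of the first internal promoter (filled, upper position) and the upstream promoter (open, lower position) of 19 of the 21 listed genes (y axis), with circles for replicate 1 and squares for replicate 2. Runx2, Nrg1 and Bdnf have internal points far to the right of the upstream ones, and Tcf4 has internal points far to the left.

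Runx2, the master transcription factor of osteoblasts, had one of the largest differences in favour of the internal promoter. Its internal peak (chr17:44736116-44736265) scored 115 in replicate 1 and 122 in replicate 2, against 29 and 29 at the upstream peak (chr17:44814476-44814625). The gene is on the minus strand and its TSSs lay 78.15 kb apart. The upstream promoter is known as the one of bone cells and opens onto a product of 596 codons, and the internal one onto 514 codons. The internal peak had a CpG ratio of 1.19 with 25 CpGs and the upstream peak 0.533 with 5. Its hotspot was 1328 bp wide at the internal and 118 bp at the upstream peak in replicate 1, and 1365 and 162 bp in replicate 2.

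The other transcription factors of the list differed among themselves. Tcf7l2 scored 111 and 130 at its internal peak in replicates 1 and 2, against 127 and 133 at the upstream peak 153.69 kb away, and its internal product of 299 codons was shorter than the upstream one of 606. Tcf4 and Tcf12, E proteins that partner lineage-specific factors, both scored higher upstream. Tcf12 had 94 and 102 at an internal peak without any CpG (ratio 0.0), against 132 and 139 at its upstream peak (ratio 1.088). Tcf4 had 5 promoters, of which the first internal scored 41 and 51 and the last, 248.84 kb downstream, 131 and 132, against 138 and 137 upstream.

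The retinoic acid receptors, the coactivator and Dnmt3a had internal peaks of similar or higher score than upstream. Rara had 131 and 135 at the internal peak, against 141 and 133 at the upstream peak, so that the replicates gave opposite orders. That upstream peak lay near a later TSS of the upstream promoter. Rarg, the retinoic acid receptor gamma, had 110 and 115 at an internal peak with a CpG ratio of 0.159, against 83 and 91 at an upstream peak with 0.918. It was thus among the genes in which the CpG-poor peak scored higher. Ppargc1a had 75 and 78 internally against 50 and 50 upstream, with CpG ratios of 0.101 and 0.378. Dnmt3a, a de novo DNA methyltransferase, had 136 and 145 at the internal promoter of its short form (689 codons), against 117 and 120 at the promoter of its long form (908 codons).

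Of the genes of adhesion and of the cytoskeleton, Nrxn2 had 97 and 111 at the internal promoter of its beta form (660 codons), against 132 and 135 at the upstream promoter of its alpha form (1710 codons). Dst had 124 and 121 internally against 107 and 121 upstream, an equal score in replicate 2. Its upstream peak lay 60 bp from the TSS of another gene. Macf1, the related cytoskeletal linker, had 59 and 76 at the first internal promoter and 140 and 142 at the last one, 252.52 kb downstream, against 109 and 116 upstream. Ank1 and Ank3, ankyrins that tie membrane proteins to spectrin, had 4 and 5 promoters and went opposite ways at the first internal one. There Ank1 had 49 and 43 against 89 and 101 upstream, and Ank3 had 97 and 117 against 71 and 95 upstream. The upstream promoter of Ank3 had no RefSeq start.

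Signalling and imprinted genes completed the list. Nrg1, a ligand of ErbB receptors, had an upstream promoter 874.58 kb from the next, which scored 134 and 132, while the last promoter, 965.64 kb downstream, scored 76 and 81, against 73 and 96 at the upstream peak. No RefSeq transcript started at the upstream TSS. Bdnf, a neurotrophin whose many first exons splice to a shared coding exon, had 116 and 122 at the internal and 80 and 95 at the upstream peak. Gnas, an imprinted locus, had promoters of 3 known products in order. The one of Nesp upstream (253 codons) scored 93 and 107, that of the extra-large G protein subunit (1133 codons) scored 79 and 85, and that of the stimulatory G protein subunit (394 codons) scored 140 and 137. The stimulatory subunit, which nearly all cells make, thus had the highest peak of the locus. Grb10, an imprinted adaptor of growth factor receptors, had 114 and 126 internally against 110 and 125 upstream. Cdkn2a, which encodes p16Ink4a from the internal and p19Arf from the upstream promoter in different reading frames, had 77 and 91 at the internal (168 codons) against 113 and 122 at the upstream peak (169 codons).

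Pde4d, a cyclic AMP phosphodiesterase with many amino-terminal variants, had 7 promoters over 810.2 kb, the most of any gene. They scored 106, 125, 47, 58, 83, 111 and 104 in replicate 1 from upstream to downstream, and 117, 121, 57, 75, 89, 123 and 107 in replicate 2. The highest was the first internal promoter in replicate 1 and the fifth internal one in replicate 2. This order depends on the window of 500 bp. The second internal promoter (47 and 57) had its TSS 325.542 kb from the upstream one. Shared peaks at 323.89 kb (110 and 107) and 324.41 kb (123 and 131) lay outside its window and were not counted. No RefSeq transcript of the gene started within 500 bp of these 7 TSSs. Frmd4a and Psd3 followed with 6 promoters each. Ank2, Ank3, Celf2, Foxp1, Gramd1b, Mtus1 and Nedd4l were among those with 5. Of the 146 genes with 3 or more promoters, 135 had the same promoter highest in both replicates, which was a later internal one in 43, the first internal one in 18 and the upstream one in 74.

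**Figure D4:**
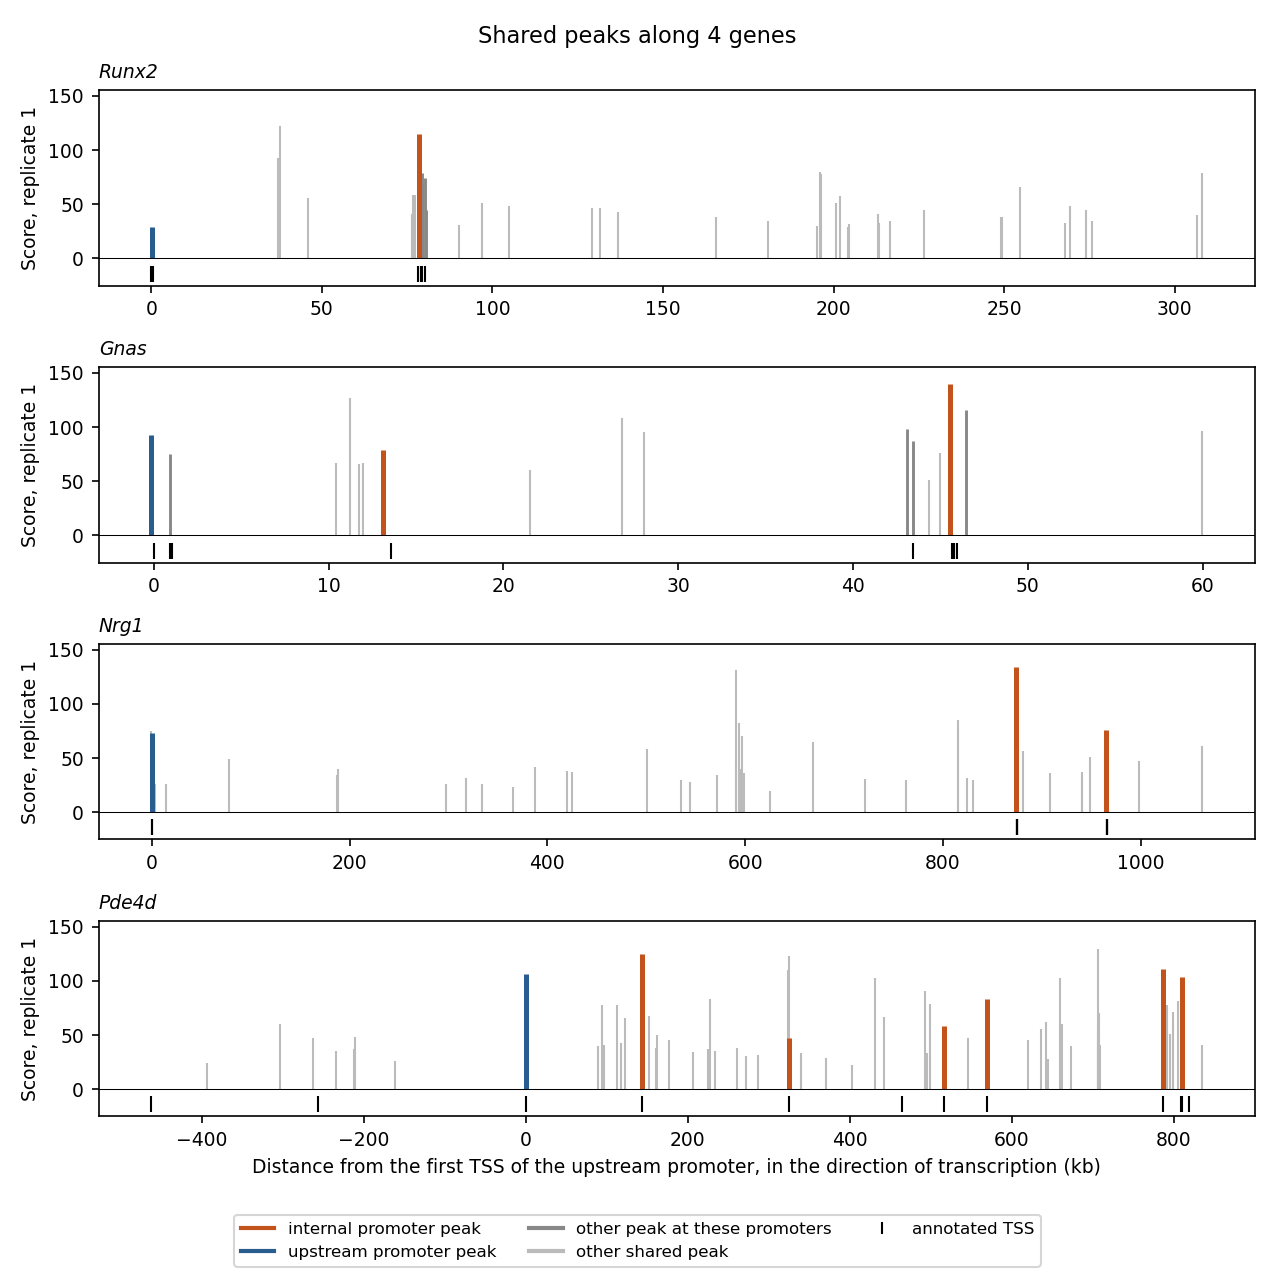
Replicate 1 score (bar height) of every shared peak along Runx2, Gnas, Nrg1 and Pde4d, by distance in kb from the first TSS of the upstream promoter in the direction of transcription. Orange and blue bars are the internal and upstream peaks that represent each promoter, grey bars are other shared peaks, and ticks under the axis mark annotated TSSs. Runx2 has a low upstream bar (29) and a high internal one (115), and Pde4d has 7 separate promoters.

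Of the listed genes, 13 had TSSs at least 10 kb apart but were not members. In Runx1, a blood transcription factor, the first accessible TSS lay 128.82 kb downstream of the most upstream one, the distal promoter known from blood cells. Runx3, Rarb, Hnf4a, Nr3c1, Lmo2, Nrxn3 and Igf2 were likewise accessible in both replicates only at TSSs downstream of the most upstream one. Trp63, Trp73, Mitf, Pparg and Cux1 were accessible at the most upstream TSS and not at one 10 kb away. With 1 replicate alone, Rarb and Cux1 would be members in replicate 1 and Trp73 in replicate 2. Lef1, Tcf7, Pax6, Nfatc1 and Tpm1 had no TSSs at least 10 kb apart.

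The other gene lists were drawn up with earlier results of these data and the nature of such genes known, and hold many long genes. Against 25.5% of all genes with TSSs 10 kb apart, members made up 19 of 25 such cytoskeletal genes (76.0%), 19 of 25 GTPase regulators and kinases (76.0%), 17 of 24 adhesion, guidance and synapse genes (70.8%) and 6 of 7 phosphodiesterases (85.7%). They were 14 of 25 transcription factors (56.0%), 8 of 13 RNA-binding proteins (61.5%), 9 of 16 chromatin regulators (56.2%), 5 of 9 signalling ligands and receptors (55.6%) and 1 of 2 ribosomal proteins. As gene length and the number of TSSs differ between the lists and all genes, these shares are counts only.

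**Figure D5:**
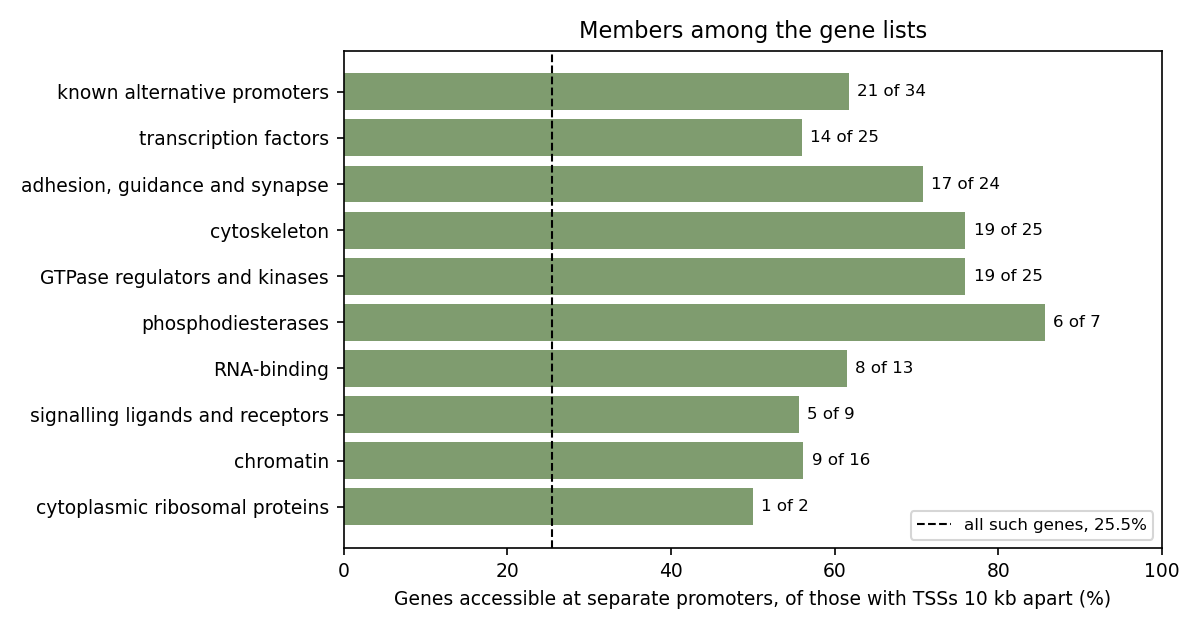
Share of genes with separate accessible promoters (x axis, percent) among the genes of each list (y axis) that have TSSs at least 10 kb apart, with counts beside the bars. The dashed line is the share over all such genes, 25.5%, and every bar ends to its right, from 1 of 2 ribosomal protein genes to 85.7% (6 of 7 phosphodiesterase genes).

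Among the other transcription factors, 6 of the 14 members scored higher internally and 7 upstream in both replicates. The named nuclear factor I genes, which encode related DNA-binding proteins, went different ways. Nfib had 116 and 134 internally against 58 and 68 upstream, and a CpG ratio of 1.135 against 0.36. Nfia had 29 and 33 internally against 140 and 143 upstream. Nfic had 91 and 103 internally against 71 and 82 upstream. The internal promoter of Nfia, the upstream one of Nfib and both of Nfic had no RefSeq start. These contrasts thus rest on promoters with weaker support from annotation. Sox6, a factor of cartilage, muscle and red cells, scored lower internally, with 29 and 36 against 74 and 88 upstream.

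In the adhesion list 6 of 17 members scored higher internally in both replicates and 10 scored higher upstream, among them the 4 named genes. Cdh2, the N-cadherin, had 70 and 74 internally against 132 and 133 upstream. Ctnnd2, a catenin, had 84 and 85 internally against 129 and 140 upstream. The pattern was the same in Dlg1 and Dlgap1, a scaffold and a scaffold-associated protein of cell junctions and synapses. Dlg1 had 46 and 54 internally against 136 and 144 upstream, and Dlgap1 had 49 and 58 internally against 129 and 133 upstream.

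Among cytoskeletal genes 7 of 19 members scored higher internally in both replicates and 12 scored higher upstream. Ank2 had 117 and 121 internally (3900 codons) against 89 and 108 upstream (113 codons). Epb41, the red cell membrane protein 4.1, had 143 and 146 internally against 120 and 129 upstream. Its relative Epb41l1 had 108 and 118 internally against 100 and 114 upstream. These 3 were thus higher internally, while Sptbn1, a beta spectrin, was lower, with 117 and 129 against 132 and 133 upstream.

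The GTPase regulators and kinases had 6 of 19 members higher internally and 13 higher upstream in both replicates. Kalrn, an exchange factor of small GTPases with 4 promoters, had 45 and 50 at the first internal one against 32 and 46 upstream. Its relative Trio, with 3 promoters, had the opposite order at the first internal one, with 88 and 96 against 140 and 141 upstream. The first internal promoter of Kalrn and that of Trio had no RefSeq start. Tiam1 and Tiam2, exchange factors of Rac, both scored lower internally. Tiam1 had 65 and 89 internally against 143 and 144 upstream, and Tiam2 had 23 and 31 internally against 92 and 111 upstream.

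The 6 phosphodiesterase members were 2 with the higher score internally, 3 with the higher score upstream and 1 that was neither in both replicates. Pde4b had 5 promoters over 502.18 kb, with 90 and 95 at the first internal one against 70 and 76 at the upstream one. Pde1c had 68 and 84 internally against 62 and 74 upstream. Pde4a and Pde7b scored lower internally. Pde4a had 48 and 60 internally against 76 and 80 upstream, and Pde7b had 78 and 87 internally against 128 and 135 upstream.

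Rbfox1, Rbfox2 and Rbfox3, splicing factors of neurons and muscle, were all members and did not share 1 order. Rbfox1 had 98 and 109 internally against 72 and 74 upstream. Rbfox2 had 96 and 100 internally against 143 and 142 upstream, and Rbfox3 had 43 and 58 internally against 98 and 113 upstream. The internal promoter of Rbfox3 had no RefSeq start. Celf2, another splicing regulator, scored higher internally, with 56 and 76 against 42 and 49 upstream.

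Among signalling genes Fgfr2, Ntrk3 and Notch1 scored higher internally, and Bmpr1b lower. Ntrk3, the receptor of neurotrophin 3, had 98 and 111 internally against 34 and 36 upstream. Notch1, the receptor of Delta and Jagged ligands, had 135 and 139 internally against 61 and 73 upstream. No RefSeq transcript started at the upstream TSS of either gene. Fgfr2, a fibroblast growth factor receptor, had 134 and 142 internally against 113 and 118 upstream. No RefSeq transcript of Fgfr2 started within 500 bp of either promoter, and its upstream peak lay 11 bp from the TSS of another gene. Bmpr1b, a BMP receptor, had 87 and 109 internally against 125 and 131 upstream.

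Among chromatin regulators, 1 of 9 members scored higher internally in both replicates and 7 scored higher upstream. Tet3, an enzyme that oxidises methylcytosine, had 139 and 141 internally against 123 and 128 upstream. The others named scored lower internally. Hdac5, a histone deacetylase, had 121 and 130 internally against 143 and 139 upstream. Chd7, a chromatin remodeller, had 81 and 70 internally against 132 and 133 upstream. Kdm2b, a CpG-binding histone demethylase, had 71 and 86 internally against 112 and 119 upstream. Rps14 was the only ribosomal protein gene of the list that was a member. It had 124 and 132 at the internal promoter, where a curated RefSeq transcript starts, against 104 and 106 at an upstream promoter where none does and which lay 291 bp from the TSS of Ndst1.

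Among the 10 internal peaks of highest mean rank were those of Acaca (143 and 147), Rangap1 (148 and 144), Epb41 (143 and 146), Bicdl1 (144 and 144), Por (144 and 144), Wiz (144 and 144), Srebf1 (142 and 145), Ifrd1 (142 and 144) and Pdcd4 (141 and 144). Acaca and Srebf1 act in fatty acid synthesis and its control, and Por donates electrons to cytochrome P450 enzymes. In these 9 genes the upstream peak scored 39 to 128 in replicate 1 and 42 to 129 in replicate 2. The upstream peaks of Acaca and Rangap1 covered the TSS of another gene (distance 0 bp), and that of Epb41 lay 639 bp from one.

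The largest differences in favour of the internal peak were at Ifrd1, Arhgap18, Pdcd4, Fam107b, Sirt1, Zfp37, Ndel1, Atp2c1, Runx2 and Txnrd1. Ifrd1 had 142 and 144 internally against 39 and 42 upstream. Sirt1, a protein deacetylase, had 137 and 140 internally against 40 and 39 upstream. Txnrd1, a thioredoxin reductase, had 135 and 136 internally against 39 and 53 upstream. All 10 had a curated RefSeq start at the internal promoter, and 6 of them (Ifrd1, Arhgap18, Fam107b, Sirt1, Zfp37 and Ndel1) had no RefSeq start at the upstream one. Over the 269 genes with the higher internal score, a curated RefSeq start was found at both promoters in 52.0%, at the internal promoter only in 27.5% and at the upstream promoter only in 13.4%. Over the 593 genes with the higher upstream score, it was found at both promoters in 40.0%, at the internal promoter only in 8.26% and at the upstream promoter only in 47.9%.

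The largest differences in favour of the upstream peak were at 0610010F05Rik, Cab39l, Teddm2, Vps13a, Nfia, Smarca4, Zfand4, Pcx, Scrib and Bcas3. Smarca4, the ATPase of a chromatin remodeller, had 24 and 37 internally against 139 and 143 upstream. Scrib, a cell polarity protein, had 33 and 33 internally against 143 and 142 upstream. Vps13a, a lipid transfer protein, had 21 and 34 internally against 140 and 137 upstream. A curated RefSeq start was found at the internal promoter of 2 of these 10 genes, Cab39l and Teddm2. The upstream peak of Cab39l covered the TSS of another gene (distance 0 bp). That of Teddm2 lay 19 bp from one, and its upstream promoter had no RefSeq start. Internal peaks without any CpG (ratio 0.0) were found in 38 genes, of which the first by symbol include Anxa2 (78 and 84), Csad (59 and 76), Apba2 (40 and 44), Creb5 (42 and 42), Asb15 (37 and 52), Ccdc92 (36 and 38) and Cd36 (30 and 51).

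Among the 10 widest spans, from the upstream to the farthest internal promoter, were 2857.09 kb at Fgfr2, 2185.03 kb at Cntnap2, 1548.49 kb at Lsamp, 1149.49 kb at Lrrc4c, 1106.02 kb at Lingo2, 1081.67 kb at Auts2, 965.64 kb at Nrg1, 955.6 kb at Anks1b and 950.08 kb at Galntl6. Cntnap2, Lsamp and Lrrc4c encode neuronal adhesion proteins. Fgfr2 owed its span to 1 annotated TSS with a product of 182 codons and no RefSeq start, and its upstream peak lay 11 bp from the TSS of another gene. In Lsamp the internal peak scored 123 and 124 against 99 and 108 upstream, and in Cntnap2 the first internal one scored 48 and 67 against 92 and 104.

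The upstream peaks of 124 members (13.4%) lay within 500 bp of the TSS of another protein-coding gene, and in 110 of these that gene was on the opposite strand, as at a bidirectional promoter. Among the 13539 other genes with an accessible TSS the share was 15.9%. Internal peaks had been required to lie over 5 kb from such TSSs, and were a median of 66.1 kb away among the 918 with one within 1000 kb.

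Further accessible sites lay between the promoters. From the upstream to the first internal TSS, members had a median of 6.53 distal peaks per 100 kb (quartiles 2.98 and 10.7), and 158 of them had none. In the 2301 genes with an accessible TSS but fewer than 2 separate promoters, the median was 4.04 per 100 kb between the outermost TSSs. Pooled over all intervals the densities were 6.75 in members and 5.48 in those genes, against 5.24 over chromosomes 1 to 19. The intervals end at accessible TSSs in members and at any TSS in the others, so these densities were not measured over like stretches. With the better-scoring 50% of each list, the median was 3.66 in the members found there, against 0.308 in the 2381 such other genes. By distance between the promoters, the median density was 7.24 at 10 to 20 kb, 6.29 at 20 to 50 kb, 7.04 at 50 to 100 kb and 6.48 at 100 kb or more.

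By distance between the promoters, the share of genes with a higher internal peak was 34.9% at 10 to 20 kb, 27.3% at 20 to 50 kb, 26.2% at 50 to 100 kb and 28.5% at 100 kb or more. The median internal CpG ratio of the same classes was 0.547, 0.469, 0.505 and 0.473. The 205 internal promoters beyond the first had a median CpG ratio of 0.457 and median scores of 83 in replicate 1 and 94 in replicate 2, close to those of the first ones. Every chromosome from 1 to 19 held members, between 25 of 139 genes with TSSs at least 10 kb apart and 39 of 110.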

How the data were processed

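For each of 2 biological replicates of DNase-seq, the authors deposited peaks and hotspots in mm10, per the labels. Aligner, peak caller and versions: not given in the sources used here. The deposited score of a peak ran from 1 to 150 in whole numbers, and its scale is unknown. Deposited hotspots carry the −log10 of a q value, from 1.3 to a ceiling of 100, per the file format. Replicates were not pooled, and the depth is unknown, so no interval was given for counting error.

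TSSs were the starts of protein-coding transcripts of protein-coding genes in GENCODE M21. Shared peaks were replicate 1 peaks with at least 1 bp in common with replicate 2. A TSS at least 10 kb from the first TSS of the last promoter began a new promoter. The internal promoter compared was the first one downstream, and in replicate 2 the overlapping peak of highest score was used. Curated RefSeq starts were those of NM transcripts of the same symbol. Python 3.11.15, numpy 2.4.6, pandas 2.3.3 and matplotlib 3.10.9 were used, and the rule was tested on simulated peaks.

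No test was made, since the members were chosen by their peaks and there is no second group. Members, lists and motifs were chosen with earlier results of these data known. Named genes were all known alternative promoters, up to 4 of each other list in list order, the 10 highest internal peaks, widest spans, most promoters and largest differences each way, 8 internal peaks of lowest CpG ratio (all tied at 0.0, taken by symbol) and genes at each threshold. A few of the genes so chosen are not reported here. Sequences were those of known alternative promoters in list order. Of 12 planned and 4 added alternatives, the effects stand in the closing section.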

Additional observations from a re-analysis of the deposited data

How the results depend on the processing

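The 5 main results were the number of members (924), genes with a higher internal score in both replicates (269), the median CpG ratio difference of internal minus upstream (-0.294), genes with their own internal start codon (506) and the median density of distal peaks (6.53 per 100 kb). Of 80 values under 16 alternatives, 63 stayed within the limits set (1.5 times for a count, 1 SD of the values from each replicate alone for the others), 17 moved and 0 changed sign. Only the CpG ratio difference could change sign, since counts and densities cannot be negative. Some values could not move. The nearest-peak setting leaves the members, their start codons and the density as they were. The CpG ratio difference was -0.278 with a window of 250 bp, -0.343 with 1000 bp, -0.328 with promoters 20 kb apart, -0.269 without incomplete transcripts, -0.319 with internal peaks 5 kb from genes of every biotype, -0.266 with the better-scoring 50% of each list and -0.309 with the nearest peak. Leaving out a replicate gave -0.32 to -0.31. The SD behind that limit was 0.00765, from 2 values. The density was 3.66 with the better-scoring 50% of each list and 8.16 to 9.07 with a replicate left out, which uses peaks that need not be shared. The cause of the other moves was not tested. Of the alternatives chosen after seeing the data, a curated RefSeq start at both promoters left 413 members, 140 with a higher internal score (33.9%), 271 with their own start codon (65.6%) and a CpG ratio difference of -0.253, and upstream peaks over 5 kb from other genes gave -0.305. Members with exactly 2 promoters, or with peak midpoints at least 10 kb apart, moved none of the 5. No paired analysis was possible because there is no second group to pair by replicate number, and promoters were compared within each gene and replicate. Unknown depth limits all counts: where no peak was called, a promoter is not shown to be closed.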
